A study of Mus musculus with 39 samples.

Results

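The genes described are those of 3 families of transcription factors, the SOX, T-box and GATA factors, at their transcription start sites (TSS) in granule cells of the mouse cerebellum. They were chosen by name, as the TSS whose Entrez ID maps to a symbol made of Sox, Tbx or Gata and a number. The rule found 38 genes among the 24045 in the table, of which 19 were Sox, 13 were Tbx and 6 were Gata genes. No measured value was used to choose them.

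SOX factors bind DNA through a high mobility group box, T-box factors through the domain that names them, and GATA factors through zinc fingers. Members of all 3 families set cell fates in the embryo. In the cerebellum SoxB1 factors (Sox1, Sox2, Sox3) are known from neural progenitors and Bergmann glia, Sox9 from glial progenitors and Bergmann glia, Sox10 from oligodendrocytes, and the SoxC factors Sox4 and Sox11 from newly formed neurons, while most T-box and GATA factors are known from heart, limb, blood, endoderm and other tissues. H3K4me3 is a histone mark of active and poised promoters. H3K27me3 is laid down by Polycomb repressive complex 2 at genes that are held silent, and a promoter with both marks is called bivalent.

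Both marks were measured by chromatin immunoprecipitation and sequencing (ChIP-seq) in C57Bl/6J mice at postnatal days 7, 12 and 21 (P7, P12, P21), and the title of the series asks how bivalency relates to the timing of granule cell development. By the labels the P7 samples were granule cell progenitors taken from a Percoll gradient, and the P12 and P21 samples were nuclei sorted as positive for NeuN and NeuroD1. Sonication took longer for the sorted nuclei than for the progenitors. The antibodies came from Active Motif (H3K4me3) and CST (H3K27me3). For H3K4me3 there were 3 P7, 2 P12 and 2 P21 libraries, and for H3K27me3 there were 5, 4 and 5. No genotype or treatment other than stage was named. Stage, isolation method and cell state therefore cannot be told apart in a comparison with P7, whereas P21 and P12 nuclei were prepared alike. The labels do not say whether replicates came from separate animals, so p-values measure the spread between these libraries, which may be technical. In bulk libraries, fewer cells with a mark and less of the mark per cell cannot be told apart.

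The promoters of 7 genes on which the results turn are printed first, from 250 bases before to 50 bases after the start, with each CpG in capitals. They are RefSeq sequences of GRCm38.p6, the assembly of mm10, and 26 of the 38 genes had an entry. Sox4 (chr13:28953650-28953949, minus strand) and Sox11 (chr12:27342669-27342968, minus strand) are shown because they carried H3K4me3 at every stage and were called higher in H3K27me3 after P7 with TMM (trimmed mean of M-values) scaling. Sox2 (chr3:34649745-34650044, plus strand) is shown as a gene with both marks at P7 and H3K27me3 alone later.
Sox4: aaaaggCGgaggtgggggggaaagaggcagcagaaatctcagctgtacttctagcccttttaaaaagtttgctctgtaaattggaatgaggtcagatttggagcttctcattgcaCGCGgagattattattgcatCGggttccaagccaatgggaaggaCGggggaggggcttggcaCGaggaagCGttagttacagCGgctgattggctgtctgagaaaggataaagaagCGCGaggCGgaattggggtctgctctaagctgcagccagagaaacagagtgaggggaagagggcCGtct
Sox11: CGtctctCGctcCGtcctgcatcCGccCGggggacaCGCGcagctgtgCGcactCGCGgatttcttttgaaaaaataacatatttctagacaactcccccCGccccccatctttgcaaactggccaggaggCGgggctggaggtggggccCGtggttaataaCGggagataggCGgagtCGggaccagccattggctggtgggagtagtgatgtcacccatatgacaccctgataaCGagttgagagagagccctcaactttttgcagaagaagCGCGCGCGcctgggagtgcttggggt
Sox2: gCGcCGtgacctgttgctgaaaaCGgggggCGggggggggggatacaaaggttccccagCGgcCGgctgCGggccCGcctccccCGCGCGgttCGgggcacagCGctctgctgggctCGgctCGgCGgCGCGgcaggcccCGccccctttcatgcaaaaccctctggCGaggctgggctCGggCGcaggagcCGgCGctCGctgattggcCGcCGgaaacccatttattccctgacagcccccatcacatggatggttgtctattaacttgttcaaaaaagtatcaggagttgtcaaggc

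Tbx20 (chr9:24774254-24774553, minus strand) and Gata2 (chr6:88193641-88193940, plus strand) are shown as genes of the other families with H3K27me3 alone at every stage. Sox15 (chr11:69654787-69655086, plus strand) and Tbx6 (chr7:126781233-126781532, plus strand) are shown as genes with neither mark at any stage.
Tbx20: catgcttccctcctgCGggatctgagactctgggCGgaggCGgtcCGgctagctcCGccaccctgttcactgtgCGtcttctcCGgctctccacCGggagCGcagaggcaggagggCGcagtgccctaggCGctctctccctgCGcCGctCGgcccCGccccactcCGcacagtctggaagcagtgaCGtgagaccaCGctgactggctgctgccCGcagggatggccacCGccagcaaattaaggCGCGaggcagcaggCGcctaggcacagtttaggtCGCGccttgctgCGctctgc
Gata2: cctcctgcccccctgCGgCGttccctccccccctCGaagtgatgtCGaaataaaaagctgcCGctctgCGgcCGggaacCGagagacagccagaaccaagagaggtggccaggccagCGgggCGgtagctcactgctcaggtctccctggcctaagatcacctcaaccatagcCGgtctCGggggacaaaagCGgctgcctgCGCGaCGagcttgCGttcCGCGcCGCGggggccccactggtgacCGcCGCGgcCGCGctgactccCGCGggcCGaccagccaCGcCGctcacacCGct
Sox15: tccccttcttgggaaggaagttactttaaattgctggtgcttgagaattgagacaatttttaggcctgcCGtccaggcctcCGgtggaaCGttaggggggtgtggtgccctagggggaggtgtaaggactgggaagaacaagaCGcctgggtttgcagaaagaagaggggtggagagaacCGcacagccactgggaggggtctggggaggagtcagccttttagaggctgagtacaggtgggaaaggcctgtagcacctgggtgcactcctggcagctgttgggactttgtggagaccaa
Tbx6: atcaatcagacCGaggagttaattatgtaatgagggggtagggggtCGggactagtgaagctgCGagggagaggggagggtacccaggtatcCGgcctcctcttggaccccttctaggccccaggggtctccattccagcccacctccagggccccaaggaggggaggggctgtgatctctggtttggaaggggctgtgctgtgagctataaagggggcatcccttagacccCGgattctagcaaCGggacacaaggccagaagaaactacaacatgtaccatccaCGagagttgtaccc

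The printed promoter of Gata2 held 32 CpG, that of Sox2 27, that of Tbx20 26 and that of Sox11 21. Sox4, which had H3K4me3 alone by peaks, held 12, and the unmarked Tbx6 and Sox15 held 7 and 5. These promoters do not stand for their classes. Sox12, also with H3K4me3 only, held 47, and Tbx10, with H3K27me3 only, held 4. Over all 32851 promoters of the table the median was 7, and the 10th and 90th percentiles were 1 and 31. Short core motifs of the 3 families were searched on both strands, none of them part of another. The SOX motif AACAAT was found in 1 of the 26 promoters, that of Tbx19, and in 10.7% of all promoters in the table. For the GATA family the motif searched was AGATAA, found at Tbx19 and Tbx22 and in 11.2% of all promoters. The T-box motif AGGTGT was found at Sox6, Sox15 and Tbx1, and in 13.7% of all promoters. Of the 26 promoters, 18 had their start within 60 bases of the annotated TSS used for peaks. Among the genes with a match only Sox6 lay farther off, by 2032 bases. The promoter of Sox5 lay farthest, by 835181 bases. A match describes letters in this window and no more.

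The H3K4me3 libraries held between 431401 and 5653193 counts over all TSS, and the H3K27me3 libraries between 264093 and 2035801. The 38 genes took 1.21% to 1.40% of all H3K27me3 counts at P7, 0.760% to 1.09% at P12 and 0.537% to 0.855% at P21, and 0.0897% to 0.106% of H3K4me3 counts. All 6 progenitor markers tested were lower in H3K4me3 (14.4% of all TSS) and higher in H3K27me3 (25.4% of all TSS) at P21 than at P7. Of 8 markers of granule cells and the sort tested in H3K4me3, 2 were higher (Gabra6 and Cbln3, 8.98% of all TSS). Another 4 were lower (Pax6, Zic1, Zic2 and Etv1, 14.4% of all TSS), and the median log2 fold change was -0.74. The row of Neurod1, a gene of the sort, was listed at 0 in every library. H3K27me3 replicates 3 and 4 of each stage stood apart. Their difference from the other replicates increased with the GC content of the 2 kb around a TSS (Spearman rho 0.309 at P7, 0.668 at P12 and 0.621 at P21, a description across 18044 TSS). Its median on the log2 scale over 36 of the genes was 0.00994 at P7, 0.583 at P12 and 0.329 at P21. In the decile of highest GC content it was 0.299, 0.928 and 0.746, and in the lowest -0.586, -0.844 and -0.825. The inputs of replicates 3 and 4 listed peaks at 10 to 29 of the 38 genes and at 5096 to 12319 of the 23981 TSS with a position. All other inputs listed none at the 38 genes and peaks at 12 to 213 of all TSS.

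Levels are given as CPM, the count at a TSS relative to the size of its library, where sizes were corrected with TMM (trimmed mean of M-values), edgeR's default. The ratio of the 95th percentile to the median of H3K27me3 counts was 22.1 to 45 at P7 and 5 to 12.9 later, so that highly marked TSS stand less far above the rest at P12 and P21 on this scale. A second scaling (trended) removed from each library the smoothed trend of its log ratio with level, so that a highly marked TSS is compared with others as highly marked. Whether lower contrast at P12 and P21 is background or less of the mark was not tested. Both scalings are given for the genes described in full, and rank among all TSS is given because it uses no scaling.

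By peaks, most of the 38 genes carried H3K27me3 without H3K4me3 at their TSS, and by this rule the share was larger at the later stages. A gene was assigned a mark at a stage when a stretch common to the peaks of 2 or more libraries lay within 1 kb of its annotated TSS. At P7 9 genes had both marks, 23 had H3K27me3 only, 3 had H3K4me3 only and 3 had neither. At P12 the 4 counts were 1, 29, 3 and 5, and at P21 they were 1, 31, 2 and 4. Over all 23981 TSS with a position, 3128 (13.0%) had both marks at P7, 527 (2.20%) did at P12 and 316 (1.32%) did at P21. H3K27me3 alone lay at 14.8%, 15.1% and 17.8% of them. H3K4me3 alone lay at 33.9%, 26.5% and 24.3% of them, and neither mark at 38.23%, 56.18% and 56.65%. When every library had to list a peak, the genes with H3K27me3 only numbered 27, 28 and 23 at P7, P12 and P21, and without H3K4me3 replicate 1 or 3 they numbered 29 at P7. Over all TSS these counts were 2840, 1717 and 1146 with every library, and 4703 or 4691 without H3K4me3 replicate 1 or 3.

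**Figure D1:**
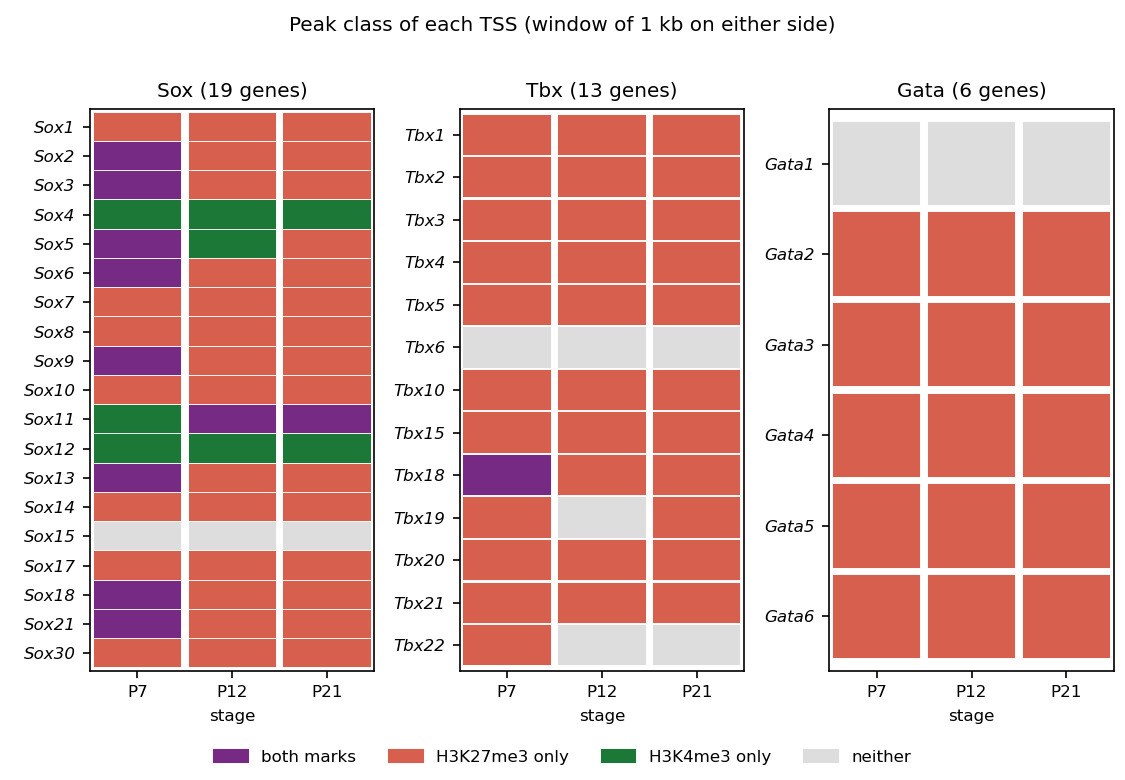
Peak class of each of the 38 genes (1 tile per gene) at P7, P12 and P21, with genes grouped by family and colours for both marks, H3K27me3 only, H3K4me3 only and neither. The 9 genes with both marks at P7 were 8 Sox genes and Tbx18, and Sox11 was the 1 gene with both marks at P12 and at P21.

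The 9 genes with both marks at P7 were Sox2, Sox3, Sox5, Sox6, Sox9, Sox13, Sox18, Sox21 and Tbx18. They belong to 5 SOX groups: SoxB1 and SoxB2 (progenitor factors), all 3 SoxD genes (known from cartilage and from glial and neuronal timing), Sox9 of SoxE, and Sox18 of SoxF (an endothelial factor), and Tbx18 is known from the epicardium. In Sox2, Sox3, Sox6, Sox13, Sox18, Sox21 and Tbx18 the H3K4me3 stretch, of 1.00 to 2.17 kb, lay wholly within an H3K27me3 stretch of 4.65 to 39.5 kb. The H3K4me3 stretch of Sox2 covered its promoter printed above. Without H3K4me3 replicate 1 or replicate 3 the count with both marks at P7 was 3, since in most of these genes only P7 replicates 1 and 3, the deeper libraries, listed an H3K4me3 peak. Over all 23981 TSS the count was then 1970 or 1982, against 3128 with all libraries. None of the 6 Gata genes had an H3K4me3 stretch at any stage.

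At P12 and P21, 8 of the 9 genes had H3K27me3 only. The exception was Sox5, which by this rule had H3K4me3 only at P12 and H3K27me3 only at P21, where 1 of 2 H3K4me3 libraries and 2 of 5 H3K27me3 libraries listed a peak. Sox5 held 35 and 186 H3K4me3 counts in P21 replicates 1 and 2, where Sox4, classed as H3K4me3 only, held 26 and 138. The P21 class of Sox5 therefore does not mean that H3K4me3 was absent. The P21 input of H3K27me3 replicate 4 also listed a peak near the Sox5 TSS. The P12 class of Sox9 rested on H3K27me3 replicates 3 and 4, whose inputs also listed a peak near its TSS. The SoxC genes were the ones with H3K4me3 and no H3K27me3 at P7. Sox4 and Sox12 kept that class at P12 and P21, and Sox11 had both marks at both later stages. Sox15, Tbx6 (a factor of paraxial mesoderm) and Gata1 (the erythroid GATA factor) had neither mark at P7, P12 and P21. The later stages had fewer H3K4me3 libraries, and all but P21 replicate 2 were shallower than the deeper P7 libraries. Their part in the lower count of bivalent genes was not tested.

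The H3K27me3 stretches of the Tbx and Gata genes were longer than those of the Sox genes at each stage, as a description. Median lengths were 12.5, 11.4 and 11.7 kb over Sox genes with a stretch at P7, P12 and P21, 24.8, 27.8 and 27.6 kb over Tbx genes, and 26.6, 25.1 and 28.7 kb over Gata genes. Over all TSS with a stretch the medians were 6.36, 4.67 and 5.78 kb. The longest lay at the neighbouring limb and heart genes Tbx5 (142, 120 and 125 kb) and Tbx3 (89.1, 106 and 117 kb). Gata4, a heart and endoderm factor, had 74.2, 60.1 and 61.9 kb, and Sox1 had 57.0, 47.2 and 83.1 kb.

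In H3K27me3 counts the 38 genes ranked near the top of all TSS at every stage. Their median percentile among 24039 TSS lay between 95.6 and 96.2 in the 5 P7 libraries, between 96.3 and 96.8 at P12 and between 94.7 and 96.4 at P21. By family the library medians were 90.9 to 96.0 for Sox, 96.2 to 98.4 for Tbx and 95.3 to 98.7 for Gata genes over all stages. The highest ranks were those of Tbx20, a heart factor, at the 99.7 to 100 percentile at P7, and of Tbx4, a hindlimb factor, at 99.9 to 100. At P21 these ranks were 99.8 to 100 for Tbx20 and 99.3 to 100 for Tbx4. The sources used here do not give the window counted around a TSS, so an order of levels between genes assumes that it was the same for all.

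**Figure D2:**
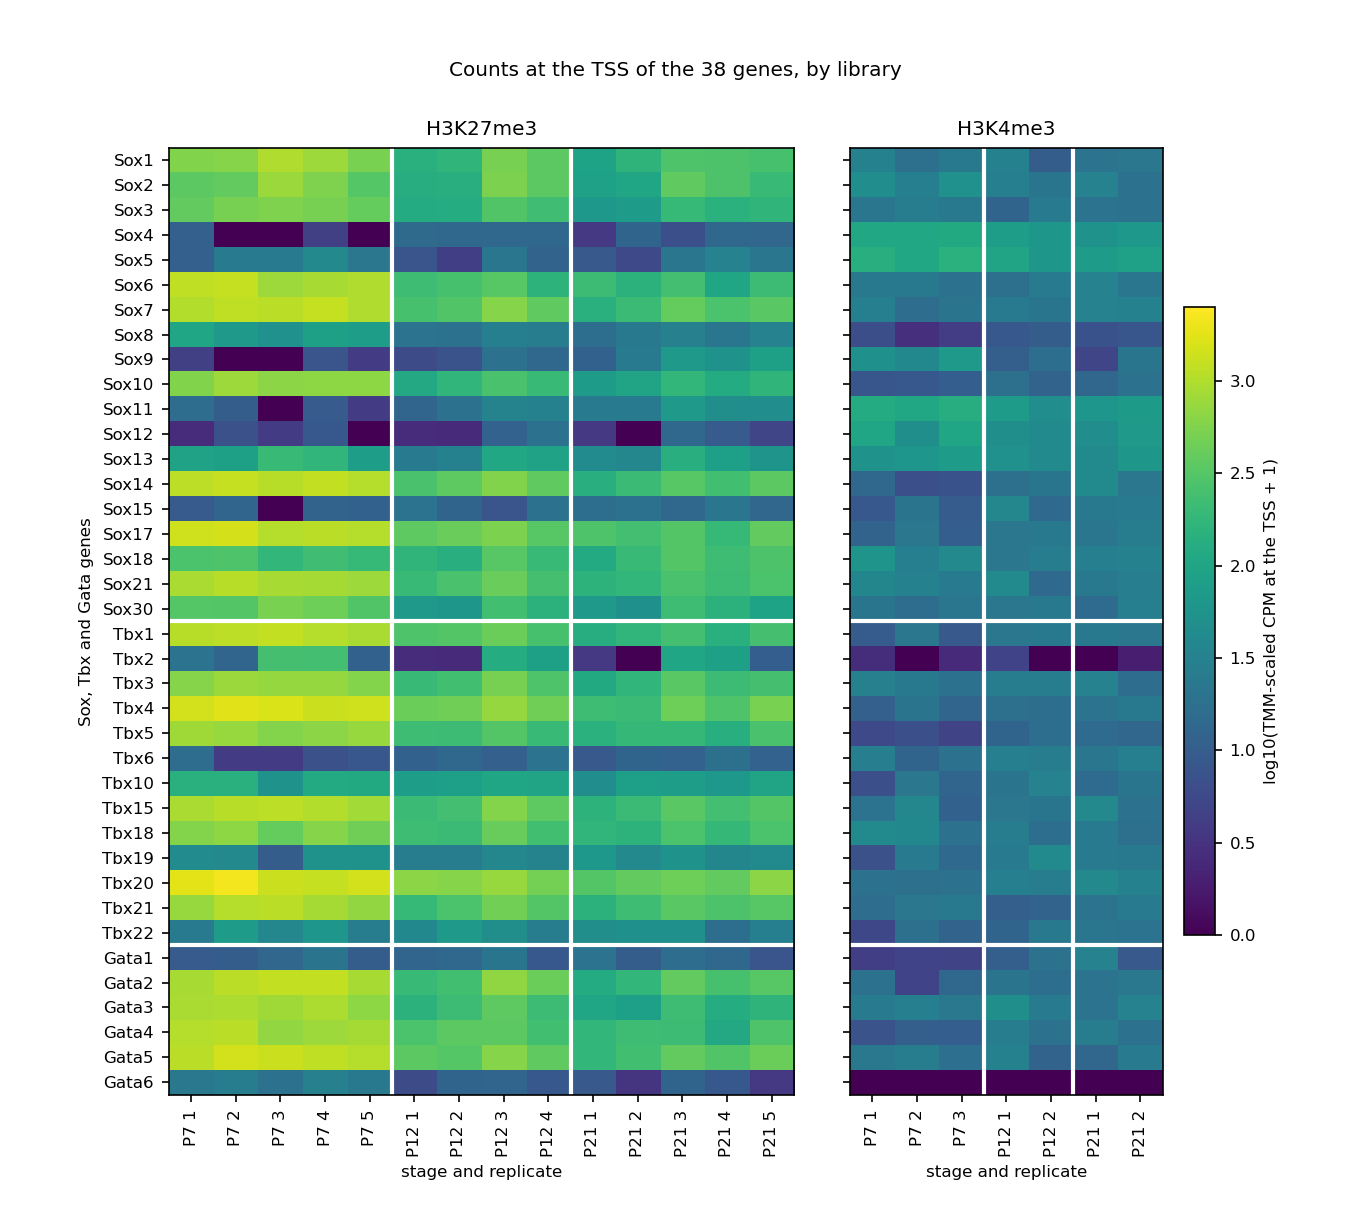
Level of each gene in every library as log10(CPM + 1), with H3K27me3 in 14 libraries on the left and H3K4me3 in 7 libraries on the right, genes in rows by family and libraries ordered P7, P12, P21. Most Tbx and Gata rows were high in H3K27me3 in all libraries and low in H3K4me3, whereas Sox4, Sox5, Sox11 and Sox12 were high in H3K4me3 and low in H3K27me3.

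In H3K4me3 the median percentile of the 38 genes was 42.4 to 51.7 at P7, 31.2 to 34.7 at P12 and 32.5 to 39.6 at P21, so a typical gene of the 3 families lay below the middle of all TSS later on. The Sox medians were 53.4 to 56.8 at P7, 36.8 to 44.1 at P12 and 47.0 to 51.4 at P21. The Tbx medians were 30.4 to 42.4, 34.7 to 36.8 and 27.3 to 31.6 at the 3 stages. Sox5 (90.4 to 93 at P7), Sox11 (88.5 to 90.4) and Sox4 (82.1 to 90.4) ranked high in H3K4me3 at P7.

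Of the 38 genes, 33 had enough counts to be tested in H3K4me3 (not Sox8, Sox10, Tbx2, Tbx5 and Gata6) and 36 in H3K27me3 (not Sox12 and Gata6). P12 against P7 and P21 against P7 share the P7 libraries, and P21 against P12 shares its libraries with both. In H3K4me3, P12 against P7, edgeR called none higher (5.34% of all TSS tested) and 4 lower (9.21% of all TSS), namely Sox5, Sox9, Sox11 and Sox12. In P21 against P7 it called 3 higher (8.98% of all TSS), namely Sox14, Gata1 and Gata4, and 5 lower (14.4% of all TSS), namely Sox2, Sox4, Sox5, Sox9 and Sox11. With trended scaling none was higher and 2 were lower in P12 against P7 (1.77% and 1.58% of all TSS), and none was higher and 1 lower in P21 against P7 (2.87% and 3.58% of all TSS). None of the 11 Tbx genes tested was called in either direction in a comparison with P7 with TMM scaling. The median log2 fold change of the 33 genes was 0.06 in P12 against P7 and 0.23 in P21 against P7, where over all TSS it was 0.16 and 0.19.

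The H3K4me3 counts of calls are small, and each of the 12 calls was lost when some 1 library was left out. Without P21 replicate 1 no gene of the 3 families was called in P21 against P7 (0.357% of all TSS were higher and 2.56% lower), and without P7 replicate 2 10 were higher (27.7% of all TSS) and 6 lower (23.4% of all TSS). In P21 against P12 no gene was called in H3K4me3 (0% of all TSS in either direction). There edgeR called no TSS at all, with 206 of 20748 at an unadjusted p under 0.05, and DESeq2 also called none.

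In H3K27me3, P12 against P7, edgeR with TMM scaling called 3 genes higher (14.4% of all TSS) and 25 lower (22% of all TSS), but 8 higher (11.3% of all TSS) and 5 lower (16.1% of all TSS) with trended scaling. In P21 against P7 it called 3 higher (25.4% of all TSS) and 25 lower (23.5% of all TSS), of which 12 were Sox, 9 were Tbx and 4 were Gata genes, but 10 higher (14.7% of all TSS) and 4 lower (19.7% of all TSS) with trended scaling. The 3 higher genes were Sox4, Sox9 and Sox11 in both comparisons with TMM scaling. The median log2 fold changes in P21 against P7 were -1.71 over 18 Sox, -1.70 over 13 Tbx and -2.15 over 5 Gata genes, and 0.34 over all TSS. With trended scaling these family medians were 0.11, 0.16 and -0.08, with 0.08 over all TSS, so the lower H3K27me3 of the families as a whole held on the TMM scale and not against TSS of like level. With library totals they were -0.62, -0.59 and -1.07, with 1.42 over all TSS.

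**Figure D3:**
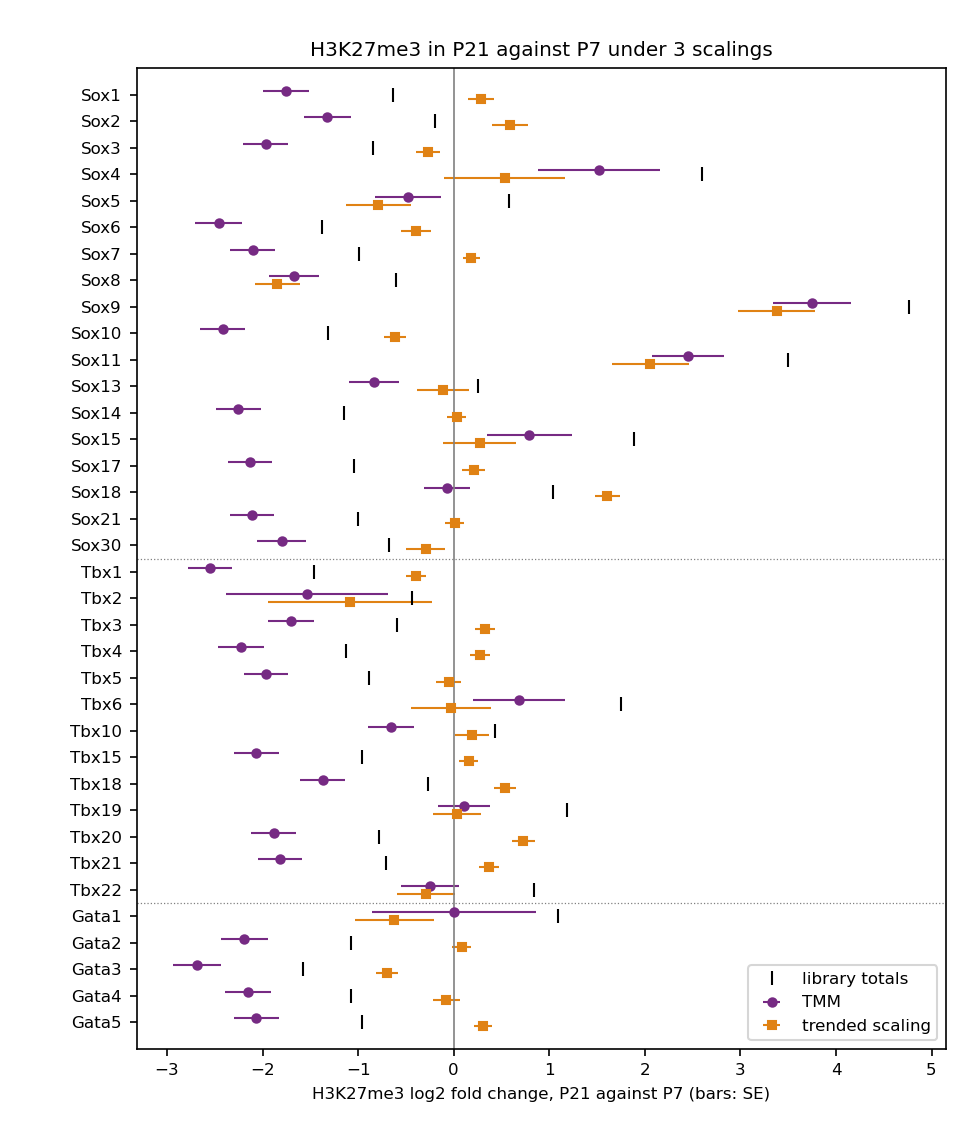
Log2 fold change of H3K27me3 in P21 against P7 for each of the 36 genes tested, with TMM scaling (purple circles, bars show SE), trended scaling (orange squares, bars show SE) and library totals (black ticks). Sox9 and Sox11 lie above 0 on all 3 scales, whereas most other genes lie below 0 with TMM and with library totals, and on either side of 0 with trended scaling.

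In P21 against P12, where nuclei were prepared alike, edgeR called 1 gene higher in H3K27me3, Sox9 (0.918% of all TSS), and 1 lower, Tbx1 (3.06% of all TSS). With trended scaling Sox9 was again called higher (0.962% of all TSS) and none was lower (3.91% of all TSS). The medians were -0.38 over Sox, -0.37 over Tbx and -0.55 over Gata genes, 0.05 over all TSS and, with trended scaling, 0.05, 0.02 and -0.06 for the 3 families.

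Among the 38 genes, Sox9 had the largest difference in H3K27me3 and the largest fall in H3K4me3 in P21 against P7. It is the SoxE factor of glial progenitors and Bergmann glia. Its H3K27me3 level was 3.38, 0, 0, 6.8 and 2.99 CPM in P7 replicates 1 to 5, 5.16, 6.46, 17.8 and 12.9 CPM in P12 replicates 1 to 4 and 10.5, 25.3, 68.9, 53.8 and 85.6 CPM in P21 replicates 1 to 5. Every P21 library was above every P7 library, and P21 replicates 2 to 5 were above every library of P7 and P12.

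The mean of Sox9 in H3K27me3 was 48.8 ± 30.8 CPM (SD, n = 5) at P21 and 2.64 ± 2.83 CPM (SD, n = 5) at P7, where 2 libraries were at 0. The fitted difference was 13.4-fold (log2 fold change 3.75, SE 0.41, adjusted p = 2.38e-11). It rested on 199 counts in all at P21 and 12 at P7. The difference was 3.38 (SE 0.40, adjusted p = 2.07e-08) on the log2 scale with trended scaling, 3.57 (SE 0.63, adjusted p = 2.85e-06) from replicates 3 and 4 alone and 4.05 (SE 0.73, adjusted p = 7.14e-05) from replicates 1, 2 and 5 alone. Sox9 was also higher at P21 than at P12 (log2 fold change 2.05, SE 0.34, adjusted p = 2.9e-05, and with trended scaling 1.87, SE 0.33, adjusted p = 0.00017), and the call held in all 25 alternatives that gave an adjusted p (DESeq2 and replicates 1 and 2 only gave none).

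At P12 the H3K27me3 of Sox9 was higher than at P7 (log2 fold change 1.70, SE 0.51, adjusted p = 0.00735). The groups overlapped, with P12 at 5.16 to 17.8 CPM and P7 at 0 to 6.8 CPM, and from replicates 1, 2 and 5 alone the difference was 1.14 (SE 1.17, adjusted p = 0.464).

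In H3K4me3 Sox9 had 50.5, 38.2 and 66.8 CPM in P7 replicates 1 to 3, 9.54 and 15.7 CPM in P12 replicates 1 and 2, and 4.1 and 20.2 CPM in P21 replicates 1 and 2. Both later stages lay below every P7 library. The level fell in P21 against P7 (log2 fold change -1.79, SE 0.38, adjusted p = 0.000144) and in P12 against P7 (log2 fold change -2.08, SE 0.46, adjusted p = 0.000556), and both calls held with trended scaling, at -1.85 (SE 0.40, adjusted p = 0.00607) and -2.22 (SE 0.50, adjusted p = 0.0121). P21 replicate 1 held 2 counts and replicate 2 held 43, and without replicate 1 the P21 difference was -1.50 (adjusted p = 0.066) and without replicate 2 it was -3.67. Without P12 replicate 1 or 2 the P12 difference was -1.76 or -2.53, each with an adjusted p above the threshold.

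The H3K27me3 peaks at Sox9 lay at different places at P7 and later. At P7 a stretch listed by replicates 1, 2, 4 and 5 lay upstream of the TSS (chr11:112778646-112781707, with the TSS at 112782210 on the plus strand) and shared 4 bases with the H3K4me3 stretch over the gene's start (chr11:112781704-112785657). At P12 a 5.41 kb stretch (chr11:112780162-112785574), listed by replicates 3 and 4, covered the TSS. At P21 a 10.6 kb stretch (chr11:112777108-112787674), listed by replicates 2 to 5, covered the TSS and most of the gene, which ends at 112787757. The inputs of replicate 3 at all stages and of replicate 4 at P12 and P21 listed a peak near the TSS, whose part was not tested, and P21 replicates 2 and 5, whose inputs listed none there, carried the same broad peak. H3K4me3 peaks were listed by all 3 P7 libraries, no P12 library and P21 replicate 2.

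**Figure D4:**
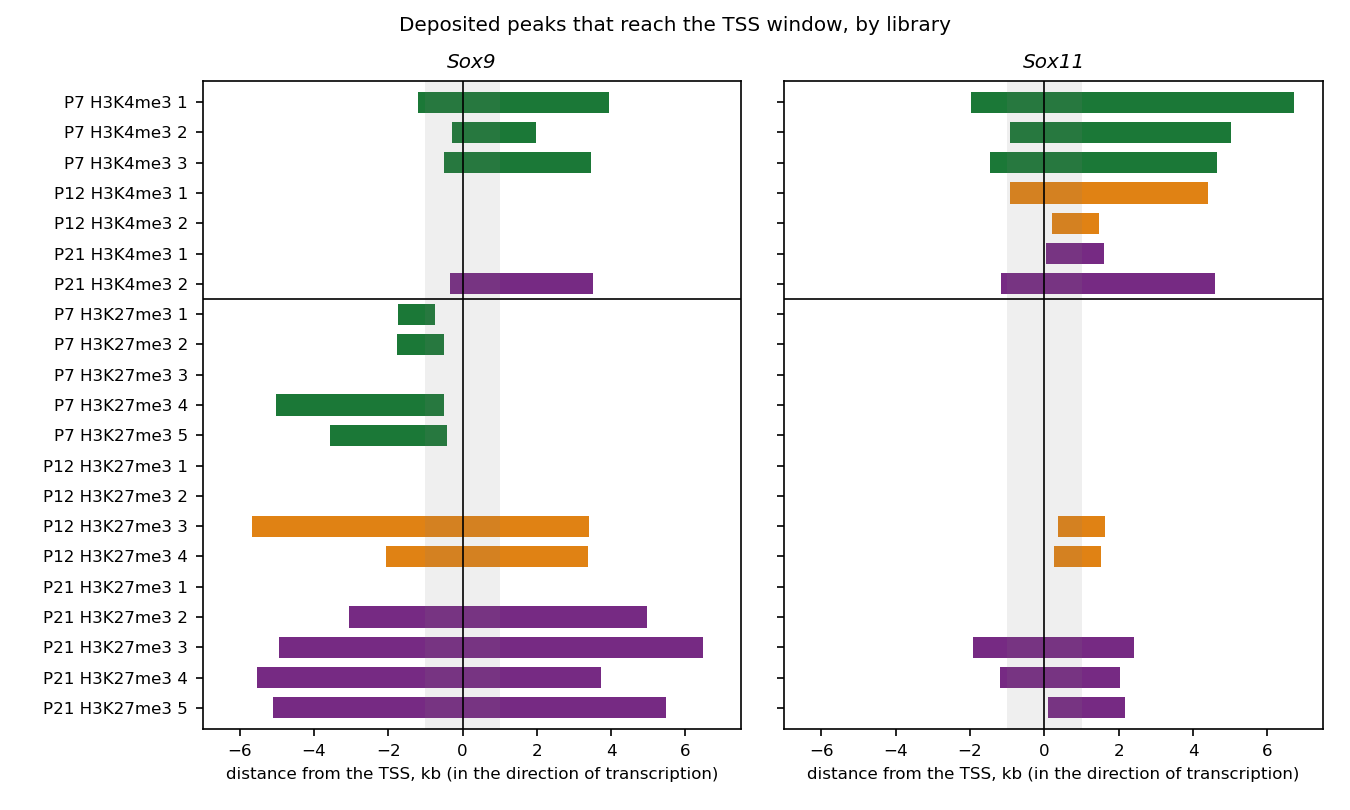
Deposited peaks around the TSS of Sox9 and Sox11 in each library (rows), as bars against the distance from the TSS in kb along the direction of transcription, with the window of 1 kb on either side in grey. At Sox9 the H3K27me3 bars end upstream of the TSS at P7 and run across it at P12 and P21, and at Sox11 H3K27me3 bars appear in P12 replicates 3 and 4 and P21 replicates 3 to 5 only.

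Sox9 marks glia. Of 10 genes that mark astrocytes or Bergmann glia, 5 were higher and 2 lower in H3K27me3 at P21 than at P7 with TMM scaling (25.4% and 23.5% of all TSS). With trended scaling 5 were higher and 1 lower (14.7% and 19.7% of all TSS). Of 9 tested in H3K4me3 none was higher and 3 were lower with TMM scaling (8.98% and 14.4% of all TSS). None was called with trended scaling (2.87% of all TSS were higher and 3.58% lower). Their summed H3K4me3 level was 263 to 307 CPM at P21 and 318 to 405 CPM at P7, with no marker at 0. The part of such cells in the Sox9 values was not tested. The other SoxE genes, Sox8 and Sox10, both known from oligodendrocytes, moved the other way in H3K27me3 with TMM and with trended scaling. Sox10 had 73.7, 96.5, 179.5, 124 and 168 CPM at P21 and 569.9, 786, 651, 669 and 666 CPM at P7, with no overlap (log2 fold change -2.42, SE 0.24, adjusted p = 7.7e-13, and with trended scaling -0.62, SE 0.11, adjusted p = 5.02e-05). Sox8 had 15.8, 23, 29.1, 20.4 and 31.3 CPM at P21 and 98.1, 69, 51.5, 84.2 and 77.8 CPM at P7 (log2 fold change -1.67, SE 0.26, adjusted p = 2.23e-07, and with trended scaling -1.84, SE 0.23, adjusted p = 5.96e-08). Both were called lower in all 27 alternatives, and both kept an H3K27me3 stretch in every library of all 3 stages.

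The SoxC genes, Sox4, Sox11 and Sox12, act in newly formed neurons. In H3K4me3 Sox11 had 124, 107 and 132 CPM at P7, 72.5 and 44.8 CPM at P12 and 59.5 and 70.8 CPM at P21, and every later library lay below every P7 library. It fell in P12 against P7 (log2 fold change -1.04, SE 0.28, adjusted p = 0.00715) and in P21 against P7 (log2 fold change -0.87, SE 0.25, adjusted p = 0.00813). Against TSS of like level these differences were -0.61 (SE 0.23, adjusted p = 0.167) and -0.42 (SE 0.20, adjusted p = 0.257), so the calls were lost with trended scaling.

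Sox11 moved the other way in H3K27me3. It had 15.2, 9, 0, 8.51 and 2.99 CPM in P7 replicates 1 to 5, 12, 17.8, 31.7 and 30 CPM in P12 replicates 1 to 4 and 23.7, 25.3, 67, 46.3 and 44.8 CPM in P21 replicates 1 to 5. P21 lay wholly above P7, while P12 replicate 1 lay within the P7 range. The difference in P21 against P7 was 5.47-fold (log2 fold change 2.45, SE 0.38, adjusted p = 2.44e-07, and with trended scaling 2.06, SE 0.40, adjusted p = 0.000119), and in P12 against P7 it was 3.15-fold (log2 fold change 1.65, SE 0.41, adjusted p = 0.00111, and with trended scaling 1.44, SE 0.44, adjusted p = 0.0129).

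Replicates 3 and 4 carried more of the Sox11 difference. From them alone it was 3.17 (SE 0.62, adjusted p = 2.44e-05) in P21 against P7, and from replicates 1, 2 and 5 alone it was 1.85 (SE 0.46, adjusted p = 0.000963). In P12 against P7 these values were 2.35 (SE 0.63, adjusted p = 0.00601) and 0.73 (SE 0.57, adjusted p = 0.32), so the P12 call was lost without replicates 3 and 4. From replicates 1 and 2 alone the P21 difference was 0.83 (SE 0.53, adjusted p = 0.212).

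By peaks Sox11 was the 1 gene of the 38 with both marks at P12 and P21. At P21 an H3K27me3 stretch of 3.38 kb (chr12:27340535-27343911) covered the whole H3K4me3 stretch (chr12:27341121-27342684) and the printed promoter. At P12 a stretch of 1.14 kb (chr12:27341206-27342346) ended within the gene and did not reach that promoter. The P12 stretch came from replicates 3 and 4, whose inputs also listed a peak there (as did the P7 inputs of both numbers), and the P21 stretch from replicates 3, 4 and 5, of which replicate 5 had no input peak. With peaks that overlap the input left out, Sox11 had H3K4me3 only at both stages, as it had with H3K27me3 replicates 1 and 2 alone.

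Sox4 had the H3K4me3 levels 53.3 and 64.7 CPM at P21 and 105, 107 and 115 CPM at P7, without overlap (log2 fold change -0.85, SE 0.26, adjusted p = 0.0134, and with trended scaling -0.41, SE 0.21, adjusted p = 0.292, not called). Its H3K27me3 level was low throughout, at 10.1, 0, 0, 3.4 and 0 CPM at P7, 13.8, 12.9, 12.9 and 12.9 CPM at P12 and 2.63, 11.5, 5.82, 12.9 and 12.2 CPM at P21. P12 lay above every P7 library (log2 fold change 1.97, SE 0.62, adjusted p = 0.00977), while P21 overlapped P7 (log2 fold change 1.52, SE 0.64, adjusted p = 0.0434). Both calls were lost with trended scaling, at 0.93 (SE 0.61, adjusted p = 0.277) and 0.54 (SE 0.63, adjusted p = 0.551), and the P21 call also in 9 of the 13 fits without 1 library that gave a value. No library at any stage listed an H3K27me3 peak at Sox4, whose printed promoter lay under an H3K4me3 stretch at P7 (chr13:28949073-28954141). Sox12 had 47.7 and 40.4 CPM of H3K4me3 at P12 and 98.7, 47.8 and 99.8 CPM at P7 (log2 fold change -0.96, SE 0.32, adjusted p = 0.031, and with trended scaling -0.65, SE 0.29, adjusted p = 0.254, not called), and was too low in H3K27me3 to be tested.

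**Figure D5:**
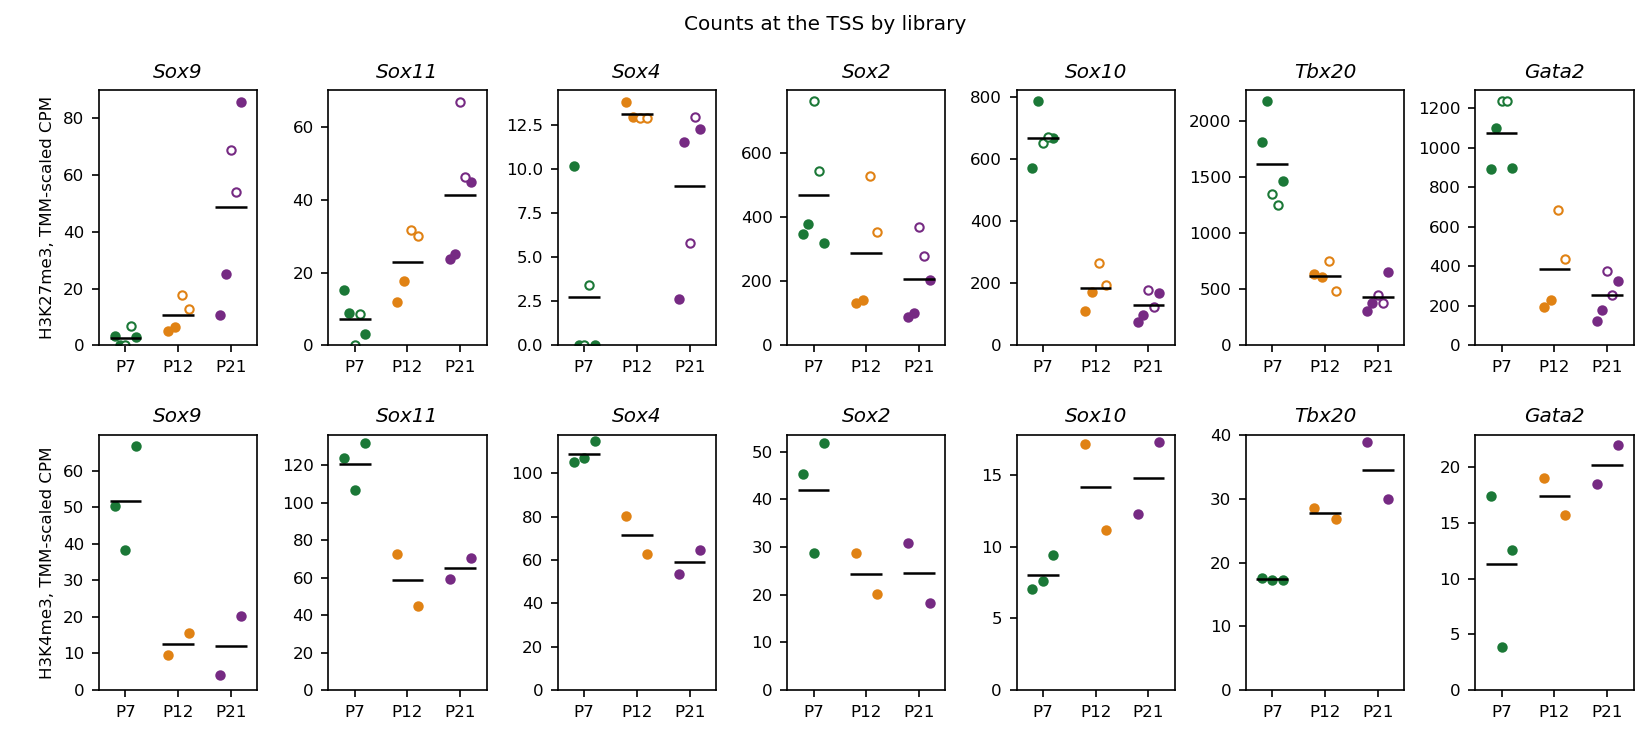
Level in CPM of Sox9, Sox11, Sox4, Sox2, Sox10, Tbx20 and Gata2 in every library at P7, P12 and P21, with H3K27me3 and H3K4me3 in separate panels, lines for stage means and open circles for H3K27me3 replicates 3 and 4. Sox9 and Sox11 are higher in H3K27me3 and lower in H3K4me3 at P21 than at P7, while Tbx20 and Gata2 are lower in H3K27me3 on this TMM scale, and above 0 (Gata2 not called) with trended scaling.

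Among the SoxB1 genes H3K27me3 was high at all stages, and the sign of the difference in P21 against P7 turned with trended scaling in Sox1 and Sox2 but not in Sox3. Sox2 had 86.9, 101, 368, 279.8 and 202 CPM at P21 and 347, 378, 763, 544 and 320.3 CPM at P7, with overlap. Replicates 3 and 4 were the highest libraries at each stage. Its difference in P21 against P7 was -1.32 with TMM (SE 0.25, adjusted p = 1.41e-05) and 0.59 (SE 0.19, adjusted p = 0.0183) with trended scaling, so the call changed sign. Its rank was the 94.4 to 99.3 percentile at P21 and 94.4 to 97.4 at P7. In H3K4me3 Sox2 had 30.8 and 18.3 CPM at P21 and 45.2, 28.7 and 51.9 CPM at P7 (log2 fold change -0.95, SE 0.37, adjusted p = 0.046, and with trended scaling -1.0, SE 0.36, adjusted p = 0.101, not called), with overlap.

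Sox1 and Sox3 fell with TMM and with library totals but were not called with trended scaling. Their differences in P21 against P7 were -1.75 for Sox1 (adjusted p = 1.04e-08) and -1.97 for Sox3 (adjusted p = 3.59e-10). With trended scaling they were 0.29 (SE 0.14, adjusted p = 0.108) and -0.27 (SE 0.12, adjusted p = 0.0902). The SoxB2 genes Sox14, known from interneurons, and Sox21, a progenitor factor, ranked at the 97.9 to 99.3 and 97.4 to 98.7 percentile at P21 and at 99 to 99.7 and 98.1 to 99 at P7. Both were lower with TMM (-2.25 and -2.11) and stood at 0.03 and 0.01 with trended scaling.

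In H3K4me3 Sox14 was called higher, with 41 and 21.1 CPM at P21 and 13, 5.73 and 6.29 CPM at P7 (log2 fold change 1.61, SE 0.51, adjusted p = 0.0151). No H3K4me3 library listed a peak at Sox14, and with trended scaling the difference was 0.29 (SE 0.42, adjusted p = 0.785). Gata1 and Gata4, the other genes called higher, were also low at P7. Gata1 had 30.8 and 7.97 CPM at P21 and 3.24, 3.82 and 3.93 CPM at P7 (log2 fold change 2.20, SE 0.76, adjusted p = 0.0261), and its difference was 1.02 without P21 replicate 1 (adjusted p = 0.446) and 3.07 without P21 replicate 2 (adjusted p = 0.0173). Gata4 had 26.7 and 17.8 CPM at P21 and 6.49, 9.55 and 9.43 CPM at P7 (log2 fold change 1.40, SE 0.54, adjusted p = 0.0461). The median TSS stood at 25.3 to 30.8 CPM at P21 and 16.6 to 24.8 CPM at P7 in these libraries. Neither was called with trended scaling, at 0.50 (SE 0.52, adjusted p = 0.681) and 0.31 (SE 0.34, adjusted p = 0.696), and DESeq2 gave no adjusted p for Sox14, Gata1 or Gata4. No H3K4me3 library listed a peak at Gata1.

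The SoxD genes differed among themselves. Sox5 had the highest mean H3K4me3 level of the 38 genes at each stage, with 135, 107 and 148 CPM at P7, 95.4 and 62.8 CPM at P12 and 71.8 and 87.2 CPM at P21. P12 and P21 lay below P7, and the differences were called with TMM (-0.72, adjusted p = 0.045, for P12, and -0.70, adjusted p = 0.0271, for P21) and not with trended scaling, at -0.23 (SE 0.21, adjusted p = 0.65) and -0.19 (SE 0.18, adjusted p = 0.656). Sox6 was high in H3K27me3, with 213, 154, 239, 100 and 213 CPM at P21 and 1170.1, 1256, 790.3, 908 and 983 CPM at P7 (log2 fold change -2.46, SE 0.24, adjusted p = 1.29e-12, and with trended scaling -0.39, SE 0.15, adjusted p = 0.0538, not called). Sox13 had 42.1, 36.8, 134, 82.9 and 57.1 CPM at P21 and 89.6, 84, 194, 171 and 76.3 CPM at P7, and its difference was -0.84 (adjusted p = 0.00737) with TMM, -0.11 (SE 0.27, adjusted p = 0.787) with trended scaling and 0.26 (adjusted p = 0.282) with library totals.

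The SoxF genes Sox7, Sox17 and Sox18 act in endothelium. The H3K27me3 rank of Sox18 was 91.8 to 93.8 at P7, 95.9 to 97.2 at P12 and 97.1 to 99.1 at P21, and every P12 and P21 library was above every P7 library. Its H3K27me3 level was 118, 195, 312, 222 and 285 CPM at P21 and 274, 288, 179, 226 and 189 CPM at P7. The difference was -0.07 with TMM (adjusted p = 0.817), 1.61 (SE 0.13, adjusted p = 5.64e-12) with trended scaling and 1.04 (adjusted p = 1.87e-06) with library totals. Sox17 stayed at the 97.6 to 99.9 percentile in all libraries of the 3 stages, and Sox7 at 98.2 to 99.8. The differences of Sox17 and Sox7 in P21 against P7 were -2.13 and -2.10 with TMM, and 0.21 (SE 0.12, adjusted p = 0.177) and 0.19 (SE 0.09, adjusted p = 0.113) with trended scaling. Of 6 endothelial and pericyte markers tested in H3K27me3, 2 were higher and 2 lower in the same comparison with TMM (25.4% and 23.5% of all TSS). With trended scaling 4 were higher and none lower (14.7% and 19.7% of all TSS). Sox30, a factor of sperm formation, was lower with TMM (-1.80) and not called with trended scaling (-0.29, SE 0.20, adjusted p = 0.285).

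Most T-box genes ranked high in H3K27me3, with Tbx2, Tbx6, Tbx19 and Tbx22 lower in some or all libraries, and none was called in H3K4me3. Tbx20 had 1814, 2186, 1354, 1250.3 and 1471 CPM at P7, 637, 612, 753 and 489 CPM at P12 and 311, 381, 449, 378 and 652 CPM at P21. The P21 and P7 ranges did not overlap, and the difference was -1.88 with TMM (SE 0.24, adjusted p = 1.17e-09) but 0.73 (SE 0.12, adjusted p = 1.76e-05) with trended scaling. Tbx4 had 218, 207, 447, 286 and 523 CPM at P21 and 1464, 1769, 1635.2, 1322 and 1404 CPM at P7, a difference of -2.23 with TMM and 0.28 (SE 0.10, adjusted p = 0.0389) with trended scaling. Tbx18 and Tbx21 (T-bet, a factor of T helper cells) also changed sign and were called higher with trended scaling, at 0.54 (SE 0.11, adjusted p = 0.000269) and 0.37 (SE 0.11, adjusted p = 0.00586), against -1.37 and -1.82 with TMM.

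Tbx1, a factor of the pharyngeal arches, was the T-box gene that fell on every scale. It had 1075, 1158, 1211, 1061 and 921 CPM at P7, 289, 305, 432 and 253 CPM at P12 and 129, 170.0, 241, 142 and 249 CPM at P21. No P21 library reached a P12 or P7 library. The difference in P21 against P7 was -2.55 (SE 0.23, adjusted p = 9.42e-14, and with trended scaling -0.39, SE 0.11, adjusted p = 0.00374). In P21 against P12 it was -0.80 (SE 0.24, adjusted p = 0.0419), and that call was lost in 6 of 14 fits that left out 1 library and with trended scaling, at -0.26 (SE 0.12, adjusted p = 0.312).

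Tbx3, Tbx5 and Tbx15 (a factor of the skeleton) were lower with TMM, at -1.70, -1.97 and -2.07. With trended scaling they stood at 0.33 (SE 0.10, adjusted p = 0.0123), -0.05 (SE 0.13, adjusted p = 0.797) and 0.16 (SE 0.10, adjusted p = 0.229). Tbx10 was lower with TMM (-0.65, adjusted p = 0.0228) and higher with library totals, at 0.43 (adjusted p = 0.0457), and the TMM call was lost without P7 replicate 1 or 2 or P21 replicate 1 or 4. Tbx6, Tbx19 (the pituitary corticotroph factor) and Tbx22 (a palate factor) were not called in either mark in any of the 3 comparisons with TMM, and Tbx19 and Tbx22 had an H3K27me3 peak in 2 of 5 P7 libraries.

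At Tbx2, a factor of heart and limb, the counts were low where the peaks were long. All 14 H3K27me3 libraries listed a peak of 19.9 to 28.6 kb within 1 kb of its TSS, whereas the TSS count was 18.6, 12, 248, 242 and 10.5 CPM in P7 replicates 1 to 5, 1.72, 1.61, 128 and 85.8 CPM in P12 replicates 1 to 4 and 2.63, 0, 99, 83.9 and 9.51 CPM in P21 replicates 1 to 5. Replicates 3 and 4 were the highest libraries at every stage, and edgeR did not call a difference in P21 against P7 (log2 fold change -1.54, SE 0.85, adjusted p = 0.155). Gata6 was alike in having a peak of 22.4 to 30.7 kb in every H3K27me3 library and no more than 28.9 CPM in any of them. In H3K4me3 Gata6 was listed at 0 in all 7 libraries, though P7 replicate 1 listed a peak of 1.84 kb there, and Tbx2 had 0 to 3.82 CPM. The window counted at these TSS was not tested as a source of the difference.

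The GATA genes split between unmarked Gata1 and 5 genes with H3K27me3 only at all stages. Gata3, known from T helper cells and the inner ear, fell on every scale. It had 103, 82.7, 221, 126 and 160.3 CPM of H3K27me3 at P21 and 932, 954, 827, 969.6 and 659 CPM at P7, with no overlap (log2 fold change -2.69, SE 0.25, adjusted p = 1.23e-13, and with trended scaling -0.70, SE 0.12, adjusted p = 1.01e-05). Its rank was the 93.7 to 96.5 percentile at P21 and 97.6 to 98.8 at P7. Between P21 and P12 its difference of -0.80 was not called by edgeR with TMM scaling (adjusted p = 0.0591). DESeq2 called Gata3 lower (adjusted p = 0.00997), with 994 of 6234 TSS lower. So did edgeR with library totals (adjusted p = 0.0188, 607 of 18089 TSS lower) and DESeq2-style size factors (adjusted p = 0.0285, 700 of 18089). From replicates 1 and 2 only it was also called lower (adjusted p = 0.00691, 760 of 14659 TSS lower). Gata3 was not called lower with trended scaling, no low-count filter, stage only, replicates 3 and later only or replicates 1, 2 and 5 only.

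Gata2, a factor of blood stem cells and of some inhibitory neurons, had 891, 1101, 1236, 1237 and 898 CPM at P7, 193, 231, 684 and 437 CPM at P12 and 121, 179, 378, 256 and 327 CPM at P21. P21 did not overlap P7, and the difference was -2.19 with TMM (SE 0.24, adjusted p = 3.88e-11) and 0.08 (SE 0.10, adjusted p = 0.572) with trended scaling. Gata4 and Gata5, heart and endoderm factors, were lower with TMM, at -2.15 and -2.07. With trended scaling they stood at -0.08 (SE 0.14, adjusted p = 0.71) and 0.31 (SE 0.09, adjusted p = 0.00902), the second called higher. Gata1 had 6.79 to 18.4 CPM of H3K27me3 at P21 and 8.45 to 19.6 CPM at P7.

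The genes called lower in H3K27me3 in P21 against P7 with TMM, with trended scaling and with library totals were Sox8, Sox10, Tbx1 and Gata3, and those called higher on these 3 scales were Sox9 and Sox11. Other developmental families showed a like dependence on scaling. All 39 Hox genes were lower with TMM (median -2.17), but 4 were higher and 5 lower with trended scaling (median 0.08). Of 37 forkhead genes 27 were lower and 2 higher with TMM (median -1.92), but 7 were lower and 6 higher with trended scaling (median 0.01). Over all TSS 23.5% were lower and 25.4% higher with TMM, and 19.7% and 14.7% with trended scaling.

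Among 19 partners and relatives of the 3 families, 14 were tested in H3K27me3. Of these, 3 were higher and 6 lower in P21 against P7 with TMM (25.4% and 23.5% of all TSS). Eomes and Tbr1, T-box genes known in the cerebellum from unipolar brush cells and cerebellar nuclei, fell with TMM (-2.57 and -2.46) and with trended scaling (-1.71 and -0.82). The T-box gene T, a mesoderm factor, was at -1.87 with TMM and 0.44 with trended scaling, and Tal1, a partner of GATA factors in blood, at -2.15 and 0.03. Pou3f2 and Pou3f3, POU partners of SOX factors in neural cells, rose in H3K27me3 by 2.48 and 2.62 with TMM and by 3.06 and 3.71 with trended scaling. Of 18 tested in H3K4me3, none was higher and 3 were lower in P21 against P7 with TMM (8.98% and 14.4% of all TSS). They were Pou3f3 (-1.41, edgeR adjusted p = 1.11e-05, trended -0.97, adjusted p = 0.0367), Tle1 (-0.82, adjusted p = 0.0378) and Eomes (-0.79, adjusted p = 0.0429). Eomes was not called in H3K4me3 with trended scaling, at -0.46 (adjusted p = 0.331).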

How the data were processed

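H3K4me3 and H3K27me3 were measured by ChIP-seq in 21 libraries at 3 stages, beside 18 input lists, so that 39 peak lists were given. The authors deposited whole-number counts per TSS and peak lists per library. The submitters' processing notes name HOMER 4.11, ChIPseeker 1.30.3 and mm10, without their roles. Aligner, counter and counted window: not given in the sources used here. The labels name 2 library kits without saying which library used which.

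Counts were fitted over all TSS with edgeR 4.0.16 (R 4.3.3): TMM scaling, filterByExpr, robust quasi-likelihood tests, Benjamini-Hochberg adjustment, threshold 0.05. The H3K4me3 model held stage. The H3K27me3 model also held the input arrangement, since replicates 1 and 2 share an input and later ones have their own. The main fits held no term for replicate number. In H3K27me3, P21 against P12, the numbers were taken to pair libraries only in an alternative with a replicate block. Deviations from the stage means correlated at 0.32 to 0.62 in 4 of 4 same-numbered pairs. Differently numbered libraries also correlated, P12 replicate 2 with P21 replicate 1 at 0.48 and P12 replicate 1 with P21 replicate 2 at 0.33. For replicates 1 and 2 the numbers therefore do not single out pairs. The fit was run on simulated counts with changes set at some TSS at P21. These counts held neither the lower contrast of the later stages nor a GC-linked difference between replicates. That run therefore cannot decide between the scalings. Trended scaling used loess (span 0.3). Peaks (bedtools 2.31.1) shared by at least 2 libraries were assigned within 1 kb of a TSS, with 1 base of overlap. Counting error limits values that rest on few counts. Alternatives were other scalings, no low-count filter, DESeq2 1.42.0, a log2 change of at least 1, other library subsets, leaving out each library and other peak rules.

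The genes and lists were chosen with earlier results of these data known. Every gene of the families could be named. Values in every library were to be given for the called genes with the smallest adjusted p in each family, mark and direction, for those called in both marks, and for those with both marks by peaks at P21. Values of other genes were added after theirs had been seen.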

Additional observations from a re-analysis of the deposited data

Results flagged for a closer look

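In 3 of 114 groups of 4 or 5 libraries 1 library was flagged by its gap to the rest relative to the range. About 1 in 20 groups, or 5.7, would be flagged by chance. Sox4 in H3K27me3 at P12 had 13.8 CPM in replicate 1 and 12.9 CPM in the others. The gap was small in CPM but took 0.94 of the narrow range. Tbx4 in H3K27me3 at P12 had 724 CPM in replicate 3 and 432 to 463 CPM in the others, a gap of 0.892 of the range. Tbx18 in H3K27me3 at P12 had 403 CPM in replicate 3 and 208 to 235 CPM in the others, a gap of 0.863 of the range.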

How the results depend on the processing

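The alternatives that use replicates 3 and 4 or replicates 1, 2 and 5 apart, a term for replicates 3 and 4, the crossed pairing and the peak classes from H3K27me3 replicate subsets were chosen after seeing the data. In H3K4me3, P12 against P7, the 4 lower genes became 2 with library totals, 2 with trended scaling, 1 with the replicate block and 2 with a log2 change of at least 1, and leaving out 1 library gave 0 to 6 higher and 0 to 7 lower. In P21 against P7 the 3 higher became 0 with trended scaling, the block and DESeq2 (which gave them no adjusted p), and the 5 lower became 3 with library totals and 1 each with trended scaling, the block and the minimum change. Of all 20748 TSS, library totals, trended scaling and the block called 856, 328 and 491 lower in P12 against P7. In P21 against P7 they called 1479, 743 and 1036 lower. Trended scaling and the block called 595 and 274 higher there, and DESeq2 208 of 11306. Leaving out 1 library gave 0 to 10 higher and 0 to 6 lower. In H3K27me3, P12 against P7, the 3 higher became 9 with library totals, 8 with trended scaling, 0 with replicates 1 and 2 only, 1 with replicates 3 and 4 only and 0 with replicates 1, 2 and 5 only, and the 25 lower became 5 with trended scaling and 14 with replicates 3 and 4 only. Leaving out 1 library gave 2 to 3 higher and 23 to 27 lower. Over all TSS 11667 of 18089 were higher with library totals. Trended scaling called 2047 of 18089 higher and 2904 lower. With replicates 1 and 2 only 1917 of 14659 were higher, and with replicates 1, 2 and 5 only 2159 of 15839 were. Replicates 3 and 4 only gave 510 of 20686 higher and 1852 lower. In P21 against P7 the 3 higher became 10 with library totals and with trended scaling and 0 with replicates 1 and 2 only, and the 25 lower became 4 with trended scaling. Leaving out 1 library gave 2 to 3 higher and 24 to 26 lower. Over all TSS 12686 of 18089 were higher with library totals. Trended scaling called 2653 of 18089 higher and 3571 lower, and replicates 1 and 2 only gave 2474 of 14659 higher. In P21 against P12 the 1 higher (Sox9) became 0 with DESeq2 and with replicates 1 and 2 only, neither of which gave it an adjusted p. The 1 lower became 2 with DESeq2-style size factors, 4 with library totals, 9 with DESeq2, 10 with replicates 1 and 2 only, and 0 with trended scaling, no filter, stage only, replicates 3 and later only, the term for replicates 3 and 4, replicates 3 and 4 only, replicates 1, 2 and 5 only, and the minimum change. Leaving out 1 library gave 0 to 2. Of all TSS, DESeq2 called 994 of 6234 lower and 164 higher. Replicates 1 and 2 only gave 760 of 14659 lower and 83 higher. Of 18089 TSS, 700 were lower with DESeq2-style size factors, 607 with library totals and 707 with trended scaling. Stage only gave 307 and the term for replicates 3 and 4 gave 431. No filter gave 494 of 23679 and replicates 3 and later only 249 of 20834. Replicates 3 and 4 only gave 166 of 20686, and replicates 1, 2 and 5 only 106 of 15839. With trended scaling the H3K27me3 difference in P21 against P7 changed sign in Sox14 (0.032), Sox21 (0.0086), Sox17 (0.21), Sox7 (0.19), Tbx4 (0.28), Tbx15 (0.16), Gata2 (0.083), Sox2 (0.59), Sox1 (0.29), Sox18 (1.61), Tbx3 (0.33), Tbx10 (0.19), Tbx18 (0.54), Tbx20 (0.73), Tbx21 (0.37) and Gata5 (0.31). With library totals it changed sign in Sox13 (0.26), Sox18 (1.04) and Tbx10 (0.43), and in Sox18 with replicates 3 and later only (0.49) and replicates 3 and 4 only (0.38), where leaving out 1 library gave -0.20 to 0.095. The cause was not tested. By peaks, genes with both marks at P7 numbered 15 with peaks in any 1 library, 1 with peaks in every library and 4 when a stretch had to cover 50% of the window, and genes with H3K4me3 only 5 with every library. Over all 23981 TSS these counts were 4702, 896, 1631 and 8045. At P12 those with both marks numbered 2 with any library and 0 with every library, the 250-base window, the 50% rule, no input-overlapping peaks and replicates 1 and 2, and H3K4me3 only 1 with the 50% rule. Over all TSS these counts were, in the same order, 1414, 138, 345, 189, 188, 138 and 4187. At P21 both marks numbered 5 with any library and 0 with every library, the 50% rule, no input-overlapping peaks and replicates 1 and 2, and H3K4me3 only 0 with the 50% rule. Over all TSS these counts were, in the same order, 1549, 21, 116, 154, 21 and 4343. Leaving out 1 library gave both marks at 3 to 9 genes at P7, 0 to 2 at P12 and 1 to 5 at P21, and H3K27me3 only at 21 to 29, 28 to 29 and 27 to 31. In the comparisons with P7 and in H3K4me3 the replicate numbers were not taken to pair samples: same-numbered libraries correlated at -0.11 to 0.30 in H3K27me3 (a limit of 0.1 was passed by 3 of 4 pairs of P7 and P12 and by 3 of 5 of P7 and P21) and at -0.30 to 0.07 over 6 pairs in H3K4me3. In H3K27me3, P21 against P12, they were taken to pair only in the replicate block, which the main fit left out. Replicates 1 and 2 also correlated across numbers there, and the block changed no call in that comparison. With the replicate block Tbx2 in H3K27me3, P21 against P7, was at -1.47 (edgeR adjusted p = 0.000104), and crossing the pairs called 0 genes in H3K4me3, P21 against P12. Depth limits both marks at P12 and P21, where H3K4me3 libraries hold 431401 to 2092414 counts and H3K27me3 libraries 264093 to 1052849.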
